A study of Homo sapiens with 4 samples.

Results

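The weak responders described here are 125 of 852 cells, within a pool of 10660 cell barcodes given as OVCAR5. They were chosen by a low level of 6 interferon-responsive genes inside 4 cultures in which those genes were high. OVCAR5 is an established human carcinoma line, usually listed as ovarian. Cultures received medium taken from tumor cells grown together with T cells, or none, and 24 cultures were pooled, and the RNA of single cells was captured in droplets at its 3′ end and sequenced. The labels list 6 supernatant levels (none, undiluted, and diluted 5, 25, 125 or 625 times), each for 2, 6, 12 or 24 h. Each culture carried a pair of hashtags, antibody-borne oligonucleotides that mark where a cell came from, and the 24 tag pairs are named by their tags (HTO5/HTO8). The sources do not link the tags to doses or times, so whether these 4 cultures were strongly exposed is not given, and each pair is 1 culture without a replicate.

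Cells entered with at least 1000 detected genes, at most 20% of molecule counts (UMIs, unique molecular identifiers) in mitochondrial genes, less than 500 CPM (UMIs of a gene per 1000000 gene UMIs of the cell) of KRT81, and a second-highest hashtag count at least 3 times the next one. The score of a cell was the summed CPM of CXCL10, IDO1, GBP1, WARS, CD74 and B2M. The lowest 15% of each pair are the weak responders: 34 cells of HTO5/HTO8, 23 of HTO6/HTO8, 36 of HTO3/HTO9 and 32 of HTO4/HTO9. The rest of the same pairs held 198, 136, 208 and 185 cells, 727 in all. As a further comparison the pairs with the lowest scores (HTO1/HTO10, HTO2/HTO9, HTO4/HTO8 and HTO7/HTO10), 810 cells in 4 pairs, are given after these and called the lowest pairs. Values listed for 4 pairs always follow the order HTO5/HTO8, HTO6/HTO8, HTO3/HTO9, HTO4/HTO9.

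Interferon gamma, which activated T cells secrete, binds a receptor of IFNGR1 and IFNGR2 chains. The kinases JAK1 and JAK2 then pass the signal to the nucleus, where genes with GAS elements in their promoters are induced, among them IRF1, itself a transcription factor. Type I interferons signal through IFNAR1 and IFNAR2, TYK2 and JAK1 to a complex that holds STAT2 and IRF9 and binds ISRE elements. Tumor necrosis factor, another T cell product, acts through NF-kB, and many chemokine genes take both inputs. In tumor cells these pathways raise antigen presentation on MHC molecules and the chemokines that draw in T cells, while SOCS1 and USP18 feed back on them.

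The promoters of 4 genes that were lower in weak responders are shown with the letters of these elements marked. They are the first 4 called genes, by size of difference, with an entry in the RefSeq promoter table (GRCh38.p14), each 300 bases from 250 before the first transcribed base, read 5′ to 3′ on the gene's strand. Capitals mark a GAS match (TTCNNNGAA, the same on both strands) or an ISRE match (GAAANNGAAA, or TTTCNNTTTC on the other strand), and in these 4 no GAS match overlapped an ISRE match. CXCL9 (chr4:76007460-76007759, minus strand) has an ISRE match that begins 171 bases upstream of the start. CXCL11 (chr4:76036021-76036320, minus strand) has a GAS match 240 bases upstream and another 18 bases after the start. TNFSF10 (chr3:172523381-172523680, minus strand) has an ISRE match 187 bases upstream. CFB (chr6:31945845-31946144, plus strand) has an ISRE match 140 bases and a GAS match 92 bases upstream.
CXCL9: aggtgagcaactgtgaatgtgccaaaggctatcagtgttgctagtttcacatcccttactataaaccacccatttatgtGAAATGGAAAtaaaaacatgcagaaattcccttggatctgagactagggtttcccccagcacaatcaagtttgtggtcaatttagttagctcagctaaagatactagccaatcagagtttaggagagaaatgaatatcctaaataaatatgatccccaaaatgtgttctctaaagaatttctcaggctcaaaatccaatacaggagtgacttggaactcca
CXCL11: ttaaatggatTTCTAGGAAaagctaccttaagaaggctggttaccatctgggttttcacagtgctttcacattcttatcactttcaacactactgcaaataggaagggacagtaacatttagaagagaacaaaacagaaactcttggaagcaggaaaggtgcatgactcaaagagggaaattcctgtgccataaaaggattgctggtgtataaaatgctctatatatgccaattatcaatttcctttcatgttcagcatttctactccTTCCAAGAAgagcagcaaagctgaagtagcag
TNFSF10: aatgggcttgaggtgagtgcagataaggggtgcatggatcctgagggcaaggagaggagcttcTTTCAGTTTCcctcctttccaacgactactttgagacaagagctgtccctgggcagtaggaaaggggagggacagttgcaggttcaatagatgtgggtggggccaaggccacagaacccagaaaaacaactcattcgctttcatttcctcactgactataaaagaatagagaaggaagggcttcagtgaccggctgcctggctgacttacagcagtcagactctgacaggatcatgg
CFB: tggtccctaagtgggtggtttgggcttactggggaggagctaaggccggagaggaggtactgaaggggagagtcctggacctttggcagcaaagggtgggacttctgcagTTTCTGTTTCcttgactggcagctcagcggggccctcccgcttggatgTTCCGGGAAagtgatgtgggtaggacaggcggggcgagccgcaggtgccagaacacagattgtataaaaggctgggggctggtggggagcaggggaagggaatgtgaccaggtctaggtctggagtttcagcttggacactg

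Of the 29 genes called lower, 22 had at least 1 promoter in the table, and 12 of these held an ISRE match and 6 a GAS match. Of all 35116 promoters listed, 3.57% held an ISRE match and 7.66% a GAS match, or 4.38% and 9.38% of 27305 genes when any promoter of a gene counts. Called genes had 1.59 promoters each, against 1.29 for all genes. A match describes letters, not binding. CCL5, C15orf48, GBP5, HLA-DRA, GBP2, PLAAT4 and NDRG1 were not matched.

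The score that chose the members had a median of 7623, 5567, 10952 and 8380 CPM in weak responders, against 14477, 11035, 20369 and 14932 CPM in the rest. Weak responders were the lowest scores of each pair, with no gap at the limit. A limit set by rank often falls between close scores, and whether a distinct group lies within the tail was not tested. In HTO5/HTO8 the last cell inside the limit scored 9123 CPM and the first outside 9212 CPM, in HTO6/HTO8 6599 and 6749 CPM, in HTO3/HTO9 12886 and 13032 CPM, and in HTO4/HTO9 9984 and 10015 CPM. The 15th percentile stood at 64.5% to 72.7% of the median in these 4 pairs and at 64.1% to 71.9% of the median in the 20 other pairs. The choice of 4 pairs was narrow at its lower end, since HTO6/HTO8 had a median of 10483 CPM over all its cells and the next pair, HTO5/HTO9, 10311 CPM.

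The score also ranked the pairs, so its distance from the lowest pairs is a description of the choice. None of the 125 (0 cells) scored at or below 1716 CPM, the median cell of the lowest pairs. At or below their 95th percentile of 3428 CPM were 5 weak responders, 4 of them in HTO6/HTO8 and 1 in HTO5/HTO8. In all, 61 weak responders and 21 cells of the rest, all 21 in HTO6/HTO8, lay at or below 8159 CPM, the highest cell of the lowest pairs. The limit in HTO3/HTO9 lay above the median of the rest in HTO6/HTO8, so a weak responder of one culture can score like a typical cell of another.

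**Figure D1:**
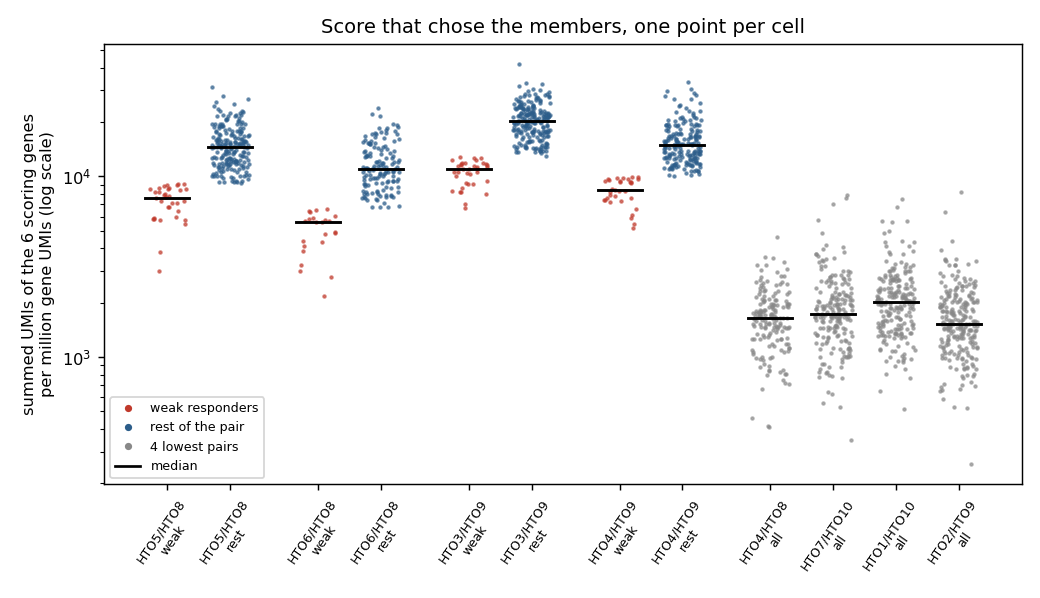
Score that chose the members (CPM, log axis), 1 point per cell, with a black line at each median. Weak responders (red) sit at medians of 5567 to 10952 CPM, the rest of the same pairs (blue) at 11035 to 20369 CPM, and the 4 lowest pairs (grey) below both, with no gap at the limit that separates red from blue.

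The 6 scoring genes are given as a description only, since they chose the cells. CXCL10, a chemokine for T cells, had 1775, 642, 1307 and 943 CPM in weak responders and 3967, 3396, 4438 and 3693 CPM in the rest. IDO1, which degrades tryptophan, had 548, 270.4, 1269 and 780.3 CPM in weak responders and 2626, 1807, 3154 and 2248 CPM in the rest. IDO1 had the lowest ratio of weak to rest among the 6 genes in HTO5/HTO8 and HTO6/HTO8, at 0.209 and 0.1497, and CXCL10 in HTO3/HTO9 and HTO4/HTO9, at 0.295 and 0.255. B2M, the light chain of MHC class I, had ratios of 0.694, 0.656, 0.644 and 0.716, the highest of the 6 except in HTO3/HTO9, where WARS had 0.690 and CD74 0.686.

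A cell can fall low by counting error alone, so the choice was repeated on UMIs kept at random with a probability of 0.5 and read in the UMIs left over. This repeat chose 112 of the same 125 cells (89.6%), an overlap that is partly built in, since the full data hold the kept UMIs. In the unused UMIs the summed score of the cells chosen this way was 0.535, 0.466, 0.539 and 0.592 of that in the rest, where the full data gave 0.502, 0.413, 0.531 and 0.521. The unused UMIs come from the same cells, so they bear on counting error and not on the choice of the pairs or genes.

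Weak responders held 437836, 266233, 413806 and 429339 gene UMIs in sum, against 2187823, 1720932, 2076342 and 2424765 in the rest, so 3 counts correspond to 6.85 to 11.3 CPM in weak responders and 1.24 to 1.74 CPM in the rest. Median UMIs per cell were 11795, 11972, 10674 and 13001 in weak responders and 10550, 12206, 9230 and 12407 in the rest. Median mitochondrial shares were 11.7%, 11.6%, 12.6% and 10.9% in weak responders and 12.9%, 11.9%, 14.0% and 12.6% in the rest, lower in weak responders in each pair. Cells with under 5% mitochondrial UMIs were 9 of 125 weak responders (7.20%) and 7 of 727 cells of the rest (0.963%). Of these, 3 weak responders and 1 cell of the rest had under 2%, between 2926 and 3758 gene UMIs, and no UMI of MALAT1, a nuclear RNA. The median ratio of the second to the next hashtag was 11.05, 7.24, 14.9 and 11.9 in weak responders and 8.401, 8.55, 16.3 and 14.0 in the rest.

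Keratins were expressed in both groups, while some defining markers of ovarian carcinoma were near 0, and the origin of the line was not tested. KRT18, a keratin of simple epithelia, had 1165, 1502, 1136 and 1428 CPM in weak responders and 1111, 1438, 883 and 1257 CPM in the rest. EPCAM, an epithelial adhesion gene, had 25.9 CPM over all weak responders and 29.8 CPM over the rest, and PAX8, a factor of the Mullerian lineage, 5.82 CPM in weak responders and 4.28 CPM in the rest. CDH1, the epithelial cadherin gene, had 1 UMI in weak responders and 3 UMIs in the rest. MUC16, an ovarian carcinoma antigen, had 0 UMIs in weak responders and 3 UMIs in the rest. VIM, on the epithelial and mesenchymal list, had 2415 CPM over all weak responders and 2621 CPM over the rest. Of the 10 T cell markers, CD3E, CD3G, CD4, PTPRC, TRAC and TRBC1 were at 0 in both groups and only IL7R passed a mean of 20 CPM, at 159 CPM over all weak responders and 192 CPM over the rest. The T cell list, IL7R included, summed to 121 to 261 CPM in weak responders and 133 to 269.7 CPM in the rest. Endothelial markers were at 0 in both groups (4 of 4), and the fibroblast list (4 of 6 genes at 0) and B cell list (2 of 3 at 0) stayed at or under 2.28 CPM. Of the 7 myeloid markers 3 were at 0, and the list summed to 37.3 to 55.6 CPM in weak responders and 34.9 to 57.8 CPM in the rest. CD68, a lysosomal gene also made outside that lineage, gave 68 of its UMIs in weak responders and 342 in the rest, against 1 and 7 UMIs of ITGAM and 0 and 30 UMIs of CD14. KRT81, whose high level marks a separate population that was left out, had 16 UMIs in 5 weak responders of HTO3/HTO9, where the rest had 20 UMIs in 13 cells. TRBC2 had 7 UMIs in 3 weak responders of that pair and 2 UMIs in 1 cell of the rest. The part of such cells in the results was not tested, and with the KRT81 limit at 100 CPM 27 genes were called lower, 24 of them shared.

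Gene levels were compared as UMIs summed over the weak responders and over the rest of each pair. A gene with a mean of at least 20 CPM over the 8 sums was called lower or higher when its ratio of (CPM + 10) passed 1.5-fold the same way in each of the 4 pairs. Because the cells were selected on expression, no test applies, and the calls describe these cultures. Of 5615 genes 29 were called lower (0.516%) and 1 was called higher (0.0178%). At any size of difference 558 genes were lower in each pair (9.94%) and 925 were higher in each pair (16.5%). The median gene had a log2 ratio of 0.03, 0.02, 0.09 and 0.04. Of the 29 lower genes, 14 stood on the lists of interferon and MHC genes, 5 only on other lists and 10 on none. For 16 of them the 4 values of weak responders and the 4 of the rest did not overlap. In 22 of them every weak sum was also above every one of the lowest pairs, and in 7 at least 1 weak sum was not. The call itself makes a lack of overlap more likely. Shares of all 5615 genes on these lists, without overlap or above the lowest pairs were not counted, so these counts only describe the called genes. A call needs every pair, so with HTO3/HTO9 left out 44 genes were called lower, and with 1 of the pairs left out 6 to 14 genes were called higher. Stricter cell limits (2000 genes, 10% mitochondrial UMIs), which left 23 weak responders, gave 36 lower genes, 6 of them among the 29, and 30 higher. With members taken within depth classes 16 genes were lower and 0 higher.

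**Figure D2:**
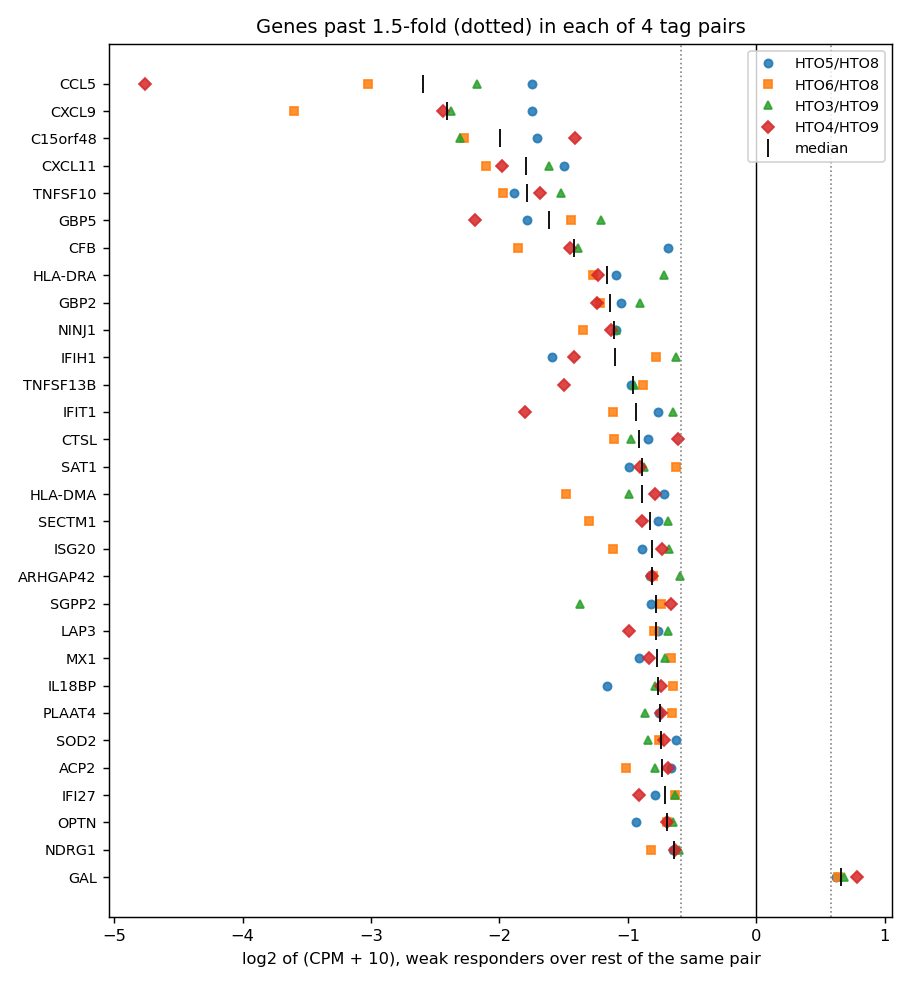
Log2 ratio of (CPM + 10), weak responders over rest, for the 30 called genes, with 1 symbol per tag pair and a bar at the median. The dotted lines mark 1.5-fold. CCL5, CXCL9 and C15orf48 lie farthest to the left, and GAL is the single gene to the right.

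Called genes for secreted or membrane-bound ligands were CCL5, CXCL9, CXCL11, TNFSF10 and TNFSF13B. CCL5 (ENSG00000271503, chromosome 17, 35871491 to 35880793), a chemokine that attracts T cells and monocytes, had 54.8, 3.76, 72.5 and 2.33 CPM in weak responders and 207, 102, 363 and 324 CPM in the rest. CCL5 was low in weak responders of every pair, the values of the 2 groups did not overlap, and over the summed cells CCL5 was 7.12-fold lower (95% counting interval 5.46 to 9.45). It rested on 1 UMI in the weak responders of both HTO6/HTO8 and HTO4/HTO9, where the ratios were 27.1-fold lower (4.80 to 1075) and 139-fold lower (24.9 to 5497). Both ratios lie outside the interval of the summed cells. Log2 ratios of (CPM + 10) were -1.74, -3.02, -2.18 and -4.76. Single folds, here and below, pool the UMIs of the 4 pairs, and their intervals do not cover differences between pairs. The lowest pairs had 0.358 to 3.18 CPM, a range that takes in the weak value of HTO4/HTO9.

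CXCL9 (ENSG00000138755, chromosome 4, 76001275 to 76007488) encodes a ligand of CXCR3, a chemokine receptor of T cells, and responds to interferon gamma. It had 169, 15.02, 271 and 86.2 CPM in weak responders and 591, 294, 1446 and 511 CPM in the rest, 4.90-fold lower (95% counting interval 4.29 to 5.62) over the summed cells. CXCL11 (ENSG00000169248, chromosome 4, 76033682 to 76041415), a second CXCR3 ligand and neighbour of CXCL9, had 432, 248, 430.2 and 389 CPM in weak responders and 1239, 1098, 1334 and 1561 CPM in the rest, 3.42-fold lower (95% counting interval 3.15 to 3.72). Neither gene overlapped between the groups, and HTO6/HTO8 had the least of both genes in both groups. In the lowest pairs CXCL9 had 2.86 to 5.09 CPM and CXCL11 7.14 to 13.2 CPM, so that every weak sum lay above them.

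TNFSF10 (ENSG00000121858, chromosome 3, 172505508 to 172523507) encodes TRAIL, a ligand that can trigger cell death. Its level was 63.95, 33.8, 99.1 and 72.2 CPM in weak responders and 263, 162, 302 and 254 CPM in the rest, 3.54-fold lower (95% counting interval 2.92 to 4.33) with no overlap. TNFSF13B, the gene of the B cell survival factor BAFF, had 27.4, 30.05, 41.1 and 27.9 CPM in weak responders and 63.5, 63.9, 88.6 and 97.3 CPM in the rest, also without overlap. The promoters printed above of CXCL9, CXCL11 and TNFSF10 thus belong to genes whose weak sums were all under every sum of the rest. On the list of 23 cytokines and chemokines, 16 genes were measured and 2 were called lower (CCL5 and TNFSF10). At any size 7 were lower in each pair, beside 9.94% of all genes. IL32, a cytokine gene, was not called, with 866, 665, 1066 and 832 CPM in weak responders and 1171, 938, 1493 and 1111 CPM in the rest. The NF-kB-driven chemokine genes CXCL1 and CXCL3 were not called either, with median log2 ratios of -0.16 and -0.18, and were widest in HTO6/HTO8 at -1.35 and -1.59.

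**Figure D3:**
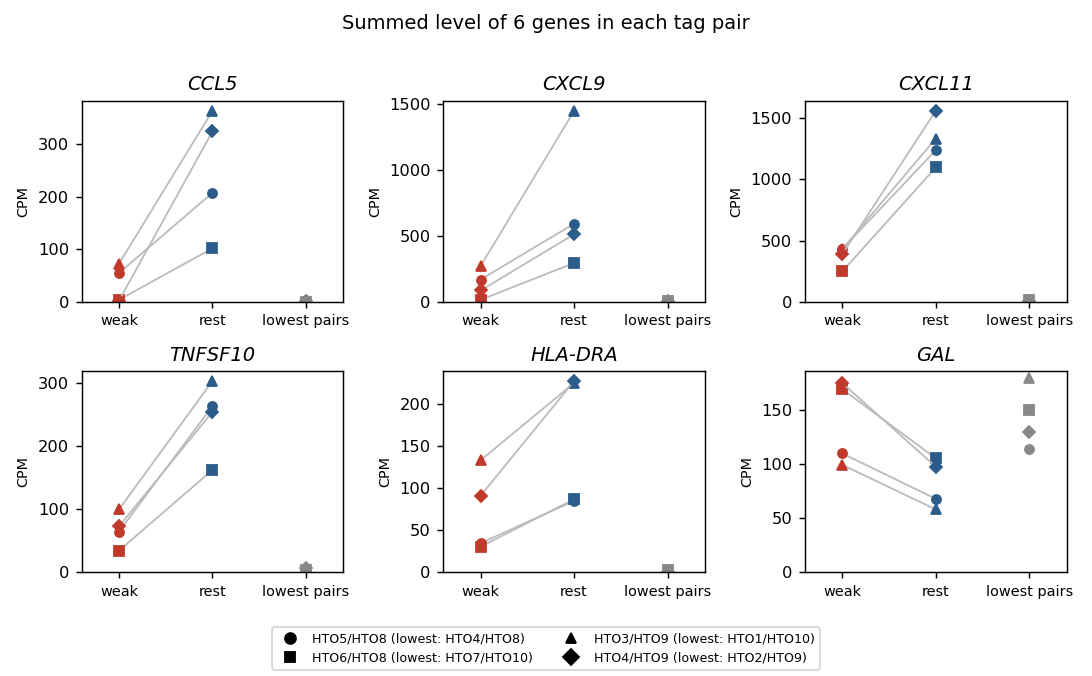
Summed level (CPM, linear axes from 0) of 6 called genes in weak responders (red), the rest of the same pair (blue, joined by a line) and the lowest pairs (grey), with 1 symbol per tag pair. CCL5, CXCL9, CXCL11 and TNFSF10 fell without overlap, HLA-DRA fell within each pair but overlapped between pairs, and GAL rose in each pair.

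Genes of the interferon gamma target list included guanylate-binding proteins. The guanylate-binding proteins are interferon gamma-induced GTPases that attack intracellular pathogens. GBP5 (ENSG00000154451, chromosome 1, 89258950 to 89272804) had 34.3, 15.02, 234 and 37.3 CPM in weak responders and 143, 58.1, 554 and 206 CPM in the rest, 2.87-fold lower (95% counting interval 2.41 to 3.45). The weak responders of HTO3/HTO9 had more GBP5 than the rest of the other 3 pairs, so the groups overlapped. GBP2 had 107, 45.1, 99.1 and 46.6 CPM in weak responders and 234, 118, 195 and 123 CPM in the rest, 2.17-fold lower (95% counting interval 1.80 to 2.64), without overlap.

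Of the 32 interferon gamma targets left after the scoring genes, 28 were measured, 7 were called lower and none higher, and 25 were lower in each pair at any size, beside 9.94% of all genes. Besides CXCL9, CXCL11, GBP5 and GBP2 the 7 were SECTM1, LAP3 and IL18BP. SECTM1, a secreted and membrane protein gene, had 29.7, 15.02, 33.8 and 27.9 CPM in weak responders and 57.6, 51.7, 60.7 and 60.2 CPM in the rest. LAP3, a leucine aminopeptidase gene, had 251, 225, 338 and 249 CPM in weak responders and 433, 399, 550.5 and 505 CPM in the rest. IL18BP, which encodes a soluble inhibitor of interleukin 18, had 54.8, 63.9, 126 and 93.2 CPM in weak responders and 135, 106, 225 and 162 CPM in the rest. The list summed to 6971, 5927, 7996 and 6617 CPM in weak responders and 10961, 9426, 12972 and 10769.7 CPM in the rest, with log2 ratios of -0.65, -0.67, -0.70 and -0.70, and 707 to 1036 CPM in the lowest pairs. The ratios were nearly the same in the 4 pairs, and the list was chosen with the score's own pathway in view.

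Antiviral genes, which answer type I and type III interferons as well as interferon gamma, differed by a similar amount. The list of 35 genes summed to 3912, 3534, 5713 and 4649 CPM in weak responders and 6464, 5707, 7718 and 8193 CPM in the rest, with log2 ratios of -0.72, -0.69, -0.43 and -0.82. Of its 30 measured members 5 were called lower (IFIH1, IFIT1, ISG20, MX1 and IFI27) and none higher. At any size 18 were lower in each pair, beside 9.94% of all genes. IFIH1 (ENSG00000115267, chromosome 2, 162267079 to 162318703), the cytosolic sensor of double-stranded RNA, had 47.96, 75.1, 94.2 and 53.6 CPM in weak responders and 164, 136, 151 and 160.4 CPM in the rest. MX1, a GTPase that blocks viruses, had 61.7, 82.6, 109 and 123 CPM in weak responders and 125, 137, 184 and 228 CPM in the rest. Both were without overlap. IFIT1 was low in all sums, with 18.3, 7.51, 16.9 and 11.6 CPM in weak responders and 37.9, 27.9, 32.3 and 65.6 CPM in the rest, and rested on 2 UMIs in the weak responders of HTO6/HTO8. IFIT1 was called under 10 of 22 alternative settings. Some settings in this tally and those below, such as leaving out a pair, could hardly drop a called gene. ISG20, an exonuclease gene, had 327, 237, 527 and 489 CPM in weak responders and 612, 525, 852 and 819 CPM in the rest. IFI27 had 589, 545, 843 and 578 CPM in weak responders and 1023, 848, 1313 and 1095 CPM in the rest, and 393 to 851 CPM in the lowest pairs, so the weak sums lay inside the range of the lowest pairs. ISG15, a ubiquitin-like modifier, and OASL, an oligoadenylate synthetase-like protein, missed the limit in HTO3/HTO9, with log2 ratios of -1.05, -0.97, -0.42 and -1.15 for ISG15 and -2.10, -1.07, -0.46 and -2.53 for OASL.

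MHC class II genes, which present peptides to CD4+ T cells, included 2 called genes and varied more between pairs than the interferon gamma targets. HLA-DRA (ENSG00000204287, chromosome 6, 32439842 to 32445046), the class II alpha chain, had 34.3, 30.05, 133 and 90.8 CPM in weak responders and 84.6, 86.6, 225 and 227 CPM in the rest, 2.13-fold lower (95% counting interval 1.76 to 2.59). Weak responders of HTO3/HTO9 and HTO4/HTO9 had more HLA-DRA than the rest of HTO5/HTO8 and HTO6/HTO8. HLA-DMA, which helps load class II molecules, had 18.3, 3.76, 24.2 and 32.6 CPM in weak responders and 36.6, 28.5, 57.8 and 63.5 CPM in the rest. Of 5 measured class II members these 2 were called lower and 4 were lower in each pair, beside 9.94% of all genes. The list had log2 ratios of -1.08, -0.66, -0.49 and -0.91. HLA-DRB1 was not called and differed widely between pairs, with 2.28, 7.51, 114 and 90.8 CPM in weak responders and 37.5, 33.7, 114 and 111 CPM in the rest, so that in HTO3/HTO9 the groups were nearly equal. HLA-DRB1 has near-identical paralogs, and its reads may be split between them. HLA-DRB1 rested on 1 UMI in the weak responders of HTO5/HTO8 and 2 UMIs in those of HTO6/HTO8.

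MHC class I genes had list ratios nearer to 1 than class II in 3 of 4 pairs, HTO3/HTO9 excepted. HLA-B had 592, 556, 996 and 1022 CPM in weak responders and 783, 834, 1547 and 1324 CPM in the rest. None of the 5 measured class I genes was called (0 of 5), and 4 were lower in each pair, beside 9.94% of all genes. The list had log2 ratios of -0.40, -0.53, -0.51 and -0.39. The class I heavy chain genes share sequence, so their split is uncertain. Of 13 measured genes of peptide processing, none was called and 9 were lower in each pair, again beside 9.94% of all genes. The processing list had a median log2 ratio of -0.25. PSMB9, an immunoproteasome subunit, had 393, 402, 826 and 769 CPM in weak responders and 602, 607, 935 and 807 CPM in the rest, and its ratio was nearer to 1 in HTO3/HTO9 and HTO4/HTO9. ERAP2, a peptide-trimming protease of the endoplasmic reticulum, was not called and had 13.7, 37.6, 36.2 and 27.9 CPM in weak responders and 21.5, 16.9, 15.4 and 16.5 CPM in the rest, higher in weak responders in 3 of 4 pairs.

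NF-kB targets summed to 5561, 3027, 5261 and 2772 CPM in weak responders and 6891, 4251, 7501 and 4268 CPM in the rest, with log2 ratios of -0.31, -0.49, -0.51 and -0.62. Of 23 measured members 1 was called lower, SOD2, and 9 were lower in each pair at any size, beside 9.94% of all genes. SOD2 (ENSG00000112096, chromosome 6, 159669057 to 159745186), the mitochondrial superoxide dismutase gene, had 1005, 537, 1104 and 629 CPM in weak responders and 1553, 914, 1985 and 1043 CPM in the rest, 1.63-fold lower (95% counting interval 1.54 to 1.73). ICAM1, an adhesion molecule for T cells that both interferon gamma and NF-kB induce, was not called, with 1026, 417, 710.5 and 284 CPM in weak responders and 1322, 655, 1142 and 527 CPM in the rest. Sums of NF-kB targets differed between pairs within both groups, with HTO5/HTO8 and HTO3/HTO9 above HTO6/HTO8 and HTO4/HTO9. The genes of the TNF pathway itself had log2 ratios of 0.08, -0.25, -0.35 and -0.01 and none of 9 was called.

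Complement factor B, CFB (ENSG00000243649, chromosome 6, 31945650 to 31952084), a protease of the alternative pathway, had 38.8, 0, 38.7 and 4.66 CPM in weak responders and 68.6, 26.1, 117 and 30.1 CPM in the rest, 2.69-fold lower (95% counting interval 1.91 to 3.90) over the summed cells. Its weak sum in HTO6/HTO8 held 0 UMIs, which against 3 counts makes it at least 2.32-fold lower there (the counting interval of the ratio begins at 1.81-fold), and that of HTO4/HTO9 held 2 UMIs. None of the other 10 measured complement and acute phase genes was called. SAA1, an acute phase apolipoprotein gene, had 1441, 1258, 1138 and 1111 CPM in weak responders and 1475, 1377, 1565 and 1446 CPM in the rest.

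The 10 lower genes on none of the lists were C15orf48, NINJ1, TNFSF13B, CTSL, SAT1, ARHGAP42, SGPP2, PLAAT4, ACP2 and OPTN. C15orf48 (ENSG00000166920, chromosome 15, 45430529 to 45448761) encodes a small mitochondrial protein of the cytochrome oxidase complex that inflammatory signals induce. It had 52.5, 7.51, 121 and 25.6 CPM in weak responders and 194, 74.96, 638 and 84.5 CPM in the rest, 4.45-fold lower (95% counting interval 3.59 to 5.59), and was highest in HTO3/HTO9 in both groups. NINJ1 (ENSG00000131669, chromosome 9, 93121489 to 93134288), which ruptures the plasma membrane in dying cells, had 79.9, 30.05, 94.2 and 34.9 CPM in weak responders and 181, 91.8, 212 and 88.3 CPM in the rest, 2.29-fold lower (95% counting interval 1.86 to 2.85). CTSL, a lysosomal cysteine protease, had 169, 101, 155 and 139.8 CPM in weak responders and 312, 230.1, 314 and 219 CPM in the rest, and 62.00 to 73.5 CPM in the lowest pairs. ACP2, lysosomal acid phosphatase, had 31.98, 33.8, 41.1 and 37.3 CPM in weak responders and 56.7, 78.4, 78.02 and 65.99 CPM in the rest, where the lowest pairs had 29.8 to 37.3 CPM. The ACP2 values of weak responders thus overlapped the lowest pairs. SAT1, the polyamine-acetylating enzyme, had 121, 60.1, 152 and 44.3 CPM in weak responders and 250.02, 98.2, 287 and 91.6 CPM in the rest, and OPTN, an autophagy receptor, 139, 128, 196 and 128 CPM in weak responders and 276, 213, 313 and 214 CPM in the rest. SGPP2, a sphingosine phosphate phosphatase, had 31.98, 15.02, 9.67 and 9.32 CPM in weak responders and 63.99, 31.96, 40.9 and 20.6 CPM in the rest. PLAAT4, a phospholipid-modifying enzyme, had 192, 135, 251 and 200.3 CPM in weak responders and 331, 218, 467 and 342 CPM in the rest, and ARHGAP42, a GTPase-activating protein, 13.7, 15.02, 36.2 and 9.32 CPM in weak responders and 32.00, 33.7, 59.7 and 23.9 CPM in the rest. Under the 22 alternative settings SGPP2 was called in 11 and ARHGAP42 in 10.

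None of the 8 measured genes that carry the interferon signal was called. The receptor chain gene IFNGR2 had 79.9, 45.1, 89.4 and 55.9 CPM in weak responders and 127, 77.3, 153 and 61.9 CPM in the rest, and IFNGR1, under the mean of 20 CPM, had 15.99, 11.3, 16.9 and 18.6 CPM in weak responders and 22.4, 12.8, 29.9 and 15.7 CPM in the rest. IFNGR2 was lower in weak responders in each pair, and IFNGR1 in 3 of 4. JAK1 had 116, 78.9, 89.4 and 53.6 CPM in weak responders and 109, 92.4, 93.4 and 80.4 CPM in the rest, and JAK2, also under the mean limit, had 11.4, 11.3, 16.9 and 18.6 CPM in weak responders and 21.9, 30.2, 20.2 and 28.5 CPM in the rest. JAK2 rested on 23 UMIs in all weak responders. IRF1, a transcription factor that interferon gamma induces, had 1181, 950.3, 1143 and 827 CPM in weak responders and 1559, 1166, 1792 and 1083 CPM in the rest, against 61.9 to 91.9 CPM in the lowest pairs. The weak responders' IRF1 thus lay several-fold above the lowest pairs and nearer to their own rest.

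Of the remaining receptors and factors, median log2 ratios were, for IFNAR1, -0.25, IFNAR2 -0.51, STAT2 -0.48, STAT3 -0.27, IRF9 -0.13, IRF2 -0.14 and TYK2, under the mean limit, -0.22. STAT2 was higher in weak responders in HTO3/HTO9 and lower in the other 3 pairs, with 20.6, 11.3, 72.5 and 23.3 CPM in weak responders and 31.5, 21.5, 46.2 and 37.5 CPM in the rest. The list of 11 signalling genes had log2 ratios of -0.35, -0.42, -0.29 and -0.33. Among 9 genes of negative feedback, 6 were measured and none was called, and the list had log2 ratios of 0.03, 0.23, 0.05 and -0.09. SOCS1, an interferon-induced inhibitor of JAK kinases, had 70.8, 41.3, 58.00 and 34.9 CPM in weak responders and 84.1, 69.1, 76.6 and 73.4 CPM in the rest, lower in weak responders in each pair. SOCS3 had 52.5, 48.8, 55.6 and 41.9 CPM in weak responders and 45.7, 38.9, 48.2 and 40.8 CPM in the rest, slightly higher in weak responders in each pair. Both were well above the lowest pairs, which had 2.51 to 4.20 CPM of SOCS1 and 9.26 to 20.4 CPM of SOCS3. The phosphatase genes PTPN1, PTPN2 and PTPN11 had median log2 ratios of 0.13, 0.21 and 0.32, and PTPN6 and USP18, under the mean limit, -0.19 and -0.19. PIAS1 had 0.24. CISH rested on 3 UMIs in weak responders.

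In the other direction the 1 called gene was GAL (ENSG00000069482, chromosome 11, 68683779 to 68691175), which encodes the neuropeptide galanin. It had 109.6, 169, 99.1 and 175 CPM in weak responders and 67.6, 105, 57.8 and 97.3 CPM in the rest, with log2 ratios of 0.62, 0.64, 0.69 and 0.78. The lowest pairs had 114 to 179 CPM of GAL, so that the weak responders overlapped the lowest pairs and the rest did not. The call sat close to its limit of 1.5-fold and was made under 11 of 22 alternative settings, several of which could hardly drop a called gene.

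The summed level of DNA replication genes was higher in weak responders in each pair, without any single gene called. The S phase list summed to 1263, 2528, 1440.3 and 2217 CPM in weak responders and 944, 1632, 719.5 and 2043 CPM in the rest, with log2 ratios of 0.42, 0.63, 0.99 and 0.12, and to 2325 to 2539 CPM in the lowest pairs. None of its 24 measured members was called, and 9 were higher in each pair at any size, where 16.5% of all genes were. MCM3 and MCM4, subunits of the replicative helicase, were apart in each pair. MCM3 had 82.2, 222, 116 and 170.03 CPM in weak responders and 47.1, 116, 38.5 and 141 CPM in the rest. MCM4 had 103, 225, 128 and 254 CPM in weak responders and 55.3, 126, 54.9 and 195 CPM in the rest. GINS2, a part of the same helicase complex, had 41.1, 75.1, 33.8 and 37.3 CPM in weak responders and 15.5, 29.1, 14.9 and 37.9 CPM in the rest. TYMS, which makes thymidylate, had 114, 225, 111 and 217 CPM in weak responders and 117, 187, 64.1 and 209.9 CPM in the rest, so it was apart mainly in HTO3/HTO9. In HTO4/HTO9 the list differed least. With HTO4/HTO9 left out, MCM3, MCM4 and GINS2 were called higher.

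G2/M genes had no common direction. Their list summed to 4017, 4661, 4419.9 and 5411 CPM in weak responders and 4337, 5761, 2264 and 5344 CPM in the rest, with log2 ratios of -0.11, -0.30, 0.96 and 0.02. In HTO3/HTO9 alone the weak responders had about the level of the other pairs while the rest was low. TOP2A, the topoisomerase of dividing cells, had 178, 214, 213 and 300.5 CPM in weak responders and 256, 316, 104 and 288 CPM in the rest. CKS1B, a cofactor of cyclin-dependent kinases, had 299, 240.4, 246 and 286 CPM in weak responders and 219, 277, 181 and 263 CPM in the rest. The list was higher in the lowest pairs than in any of these sums, at 7946 to 9995 CPM for G2/M. Of 43 measured G2/M genes 4 were higher in each pair and 0 lower, beside 16.5% and 9.94% of all genes. Histone genes had log2 ratios of 0.39, 0.36, 0.60 and 0.06. Of their 8 measured members 5 were higher in each pair, also beside 16.5% of all genes, and none was called. CDKN1A, the p21 inhibitor of the cell cycle, was not called, with 57.1, 7.51, 19.3 and 20.96 CPM in weak responders and 70.4, 49.4, 78.02 and 51.6 CPM in the rest.

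Heat shock genes had log2 ratios of 0.17, 0.09, 0.50 and 0.29. Of 11 measured members 4 were higher in each pair, beside 16.5% of all genes, and none was called. HSP90AB1, a constitutive chaperone gene, had 1781, 2742, 1868 and 2909 CPM in weak responders and 1657, 2436, 1319.6 and 2229 CPM in the rest. Cytosolic ribosomal protein genes differed little but evenly, with log2 ratios of 0.10, 0.08, 0.10 and 0.12 and 39 of 78 measured members higher in each pair. These ratios stand beside medians over all genes of 0.03, 0.02, 0.09 and 0.04, and the 39 members beside 16.5% of all genes. Mitochondrially encoded genes had log2 ratios of -0.05, -0.09, -0.25 and -0.21. On this list 8 of 13 were lower in each pair, beside 9.94% of all genes, and none was called. This list is nearly the mitochondrial share of UMIs given above in another form, and with members taken within classes of mitochondrial share its median log2 ratio was -0.0443. The nuclear-encoded subunits of the respiratory chain had log2 ratios of 0.05, 0.01, 0.11 and 0.03. Counts are shares of a cell's captured UMIs, so fewer molecules of some genes raise the others, and absolute amounts cannot be told apart from these.

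The remaining lists had median log2 ratios between -0.28 and 0.08. FTH1, the ferritin heavy chain gene on the oxidative stress list, was not called, with 11591, 5829, 11723 and 5145 CPM in weak responders and 16455, 7351, 18876 and 6234 CPM in the rest, and the list had a median log2 ratio of -0.16. Metallothioneins had -0.26, the integrated and endoplasmic reticulum stress list -0.24, cell cycle arrest and p53 genes -0.25, complement and acute phase genes -0.28, cell death genes -0.13, TGF-beta targets -0.14, epithelial and mesenchymal genes -0.14, immediate early genes -0.06, cholesterol synthesis genes -0.05, hypoxia and glycolysis genes -0.08, secretory and translation genes 0.08 and nuclear noncoding RNAs 0.03. These lists held 2 called genes, CFB and the hypoxia-responsive NDRG1, which had 22.8, 18.8, 24.2 and 13.97 CPM in weak responders and 41.6, 40.7, 41.9 and 27.2 CPM in the rest and was called under 9 of 22 alternative settings.

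**Figure D4:**
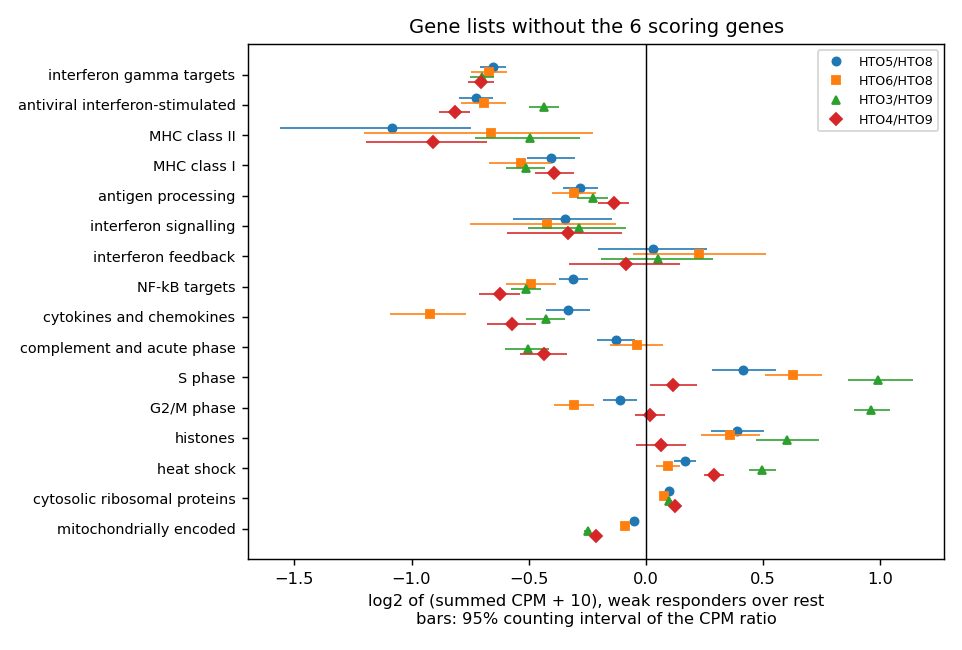
Log2 ratio of (summed CPM + 10), weak responders over rest, for 16 gene lists without the scoring genes, with 1 symbol per tag pair. Horizontal bars are 95% counting intervals of the plain CPM ratio and cover counting error only. Interferon gamma targets lie between -0.70 and -0.65, the S phase list above 0 in each pair, and the G2/M list on both sides of 0 with HTO3/HTO9 at 0.96.

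Single cells differed among themselves. For the interferon gamma targets 120 of 125 weak responders lay below the median of the rest of their pair, for the antiviral list 110, for MHC class I 108, for NF-kB targets 105 and for MHC class II 99. For the S phase list 28 of 125 lay below the median of the rest, for heat shock 34, for ribosomal proteins 37, for G2/M 48 and for mitochondrially encoded genes 83. Of the 125, 91 were below the median of the rest in interferon gamma, antiviral and NF-kB lists together. In 15 cells the first 2 lists were below and NF-kB was not, 8 of them in HTO5/HTO8. In 10 cells the antiviral list was the one not below, 5 of them in HTO4/HTO9. A further 4 cells were below in the interferon gamma list only, and 5 were not below in it, 4 of these in HTO6/HTO8. Interferon gamma targets ran from 2515 to 9542 CPM over the weak responders of HTO5/HTO8, 2491 to 10728 CPM in HTO6/HTO8, 4814 to 12964 CPM in those of HTO3/HTO9, with 4231 to 9859.5 CPM in HTO4/HTO9.

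Shares of cells with at least 1 UMI were compared after each cell was thinned to 3000 UMIs, which left out 3 weak responders, 3 cells of the rest and 4 of the lowest pairs. Exact binomial 95% intervals in parentheses count cells pooled over the pairs. They describe these cells, do not cover differences between cultures, and do not make cells replicates. CXCL9 was detected in 20.5% of weak responders (13.7 to 28.7), 60.4% of the rest (56.7 to 63.9) and 0.993% of the lowest pairs (0.429 to 1.95). Without thinning these shares were 42.4%, 81.6% and 4.69%. Single pairs differed, and after thinning CXCL9 ran from 0% (HTO6/HTO8) to 26.5% (HTO5/HTO8) in weak responders. In the rest it ran from 40.7% (HTO6/HTO8) to 77.4% (HTO3/HTO9). CCL5 was detected in 7.38% of weak responders (3.43 to 13.5), 26.4% of the rest (23.2 to 29.8) and 0.744% of the lowest pairs (0.274 to 1.61), and CXCL11 in 60.7% of weak responders (51.4 to 69.4), 93.2% of the rest (91.2 to 94.95) and 2.61% of the lowest pairs (1.62 to 3.96). Over the 4 pairs together most thinned weak responders had a CXCL11 UMI, but in HTO6/HTO8 38.1% had one. Without thinning CXCL9 was found in 55.6% of the weak responders of HTO3/HTO9.

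For TNFSF10 the shares were 18.03% of weak responders (11.7 to 26.02), 45.7% of the rest (42.04 to 49.4) and 1.86% of the lowest pairs (1.05 to 3.05). GBP5 was found in 17.2% of weak responders (10.98 to 25.1), 43.4% of the rest (39.7 to 47.1) and 0.496% of the lowest pairs (0.135 to 1.27). HLA-DRA was found in 22.95% of weak responders (15.8 to 31.4), 32.5% of the rest (29.1 to 36.00) and 0.248% of the lowest pairs (0.0301 to 0.893). By pair the weak responders had 5.88%, 4.76%, 38.9% and 35.5%, and the rest 21.9%, 20%, 42.8% and 41.1%. The groups were thus close in HTO3/HTO9 and HTO4/HTO9. IRF1 was detected in 91.8% of weak responders (85.4 to 96.00), 96.7% of the rest (95.1 to 97.9) and 21.5% of the lowest pairs (18.7 to 24.5), so nearly all weak responders carried it. The shares in the lowest pairs, whose median depth was 13490 UMIs against 11682 in weak responders and 11005 in the rest, include whatever free RNA of the pool contributed to them. GAL went the other way, with 28.7% of weak responders (20.9 to 37.6), 16.9% of the rest (14.2 to 19.8) and 33.7% of the lowest pairs (30.5 to 37.1).

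Across all cells of a pair, the genes whose level followed the score most closely were CXCL11, with a median within-pair Spearman rank correlation of 0.619 over the 4 pairs, CXCL9 with 0.518, TNFSF10 with 0.479 and SOD2 with 0.429. Each correlation is over 159 to 244 cells of 1 culture, and the cells share library, depth and total, so these are descriptions. PTMA, RPS2, HMGB1 and EEF1B2 had the most negative values, at -0.34, -0.33, -0.32 and -0.32. The score itself had a rank correlation with depth of -0.21, 0.07, -0.30 and -0.10, with the mitochondrial share of 0.16, 0.12, 0.11 and 0.18, with the S phase list of -0.37, -0.30, -0.49 and -0.14, and with the G2/M list of -0.22, -0.05, -0.46 and -0.05.

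The matrix also lists Katushka, a far-red fluorescent protein, as a gene. It had 10 UMIs in 9 weak responders, which is 6.46 CPM (exact Poisson 95% interval 3.10 to 11.9), and 75 UMIs in 65 cells of the rest, 8.92 CPM (7.01 to 11.2). The lowest pairs had 6 UMIs, 0.524 CPM. What construct carried it is not given in the sources used here, and the intervals of weak responders and rest overlap.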

How the data were processed

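One pool, given as OVCAR5 cells and including the KRT81-high population left out here, was measured in 4 libraries, 2 of gene expression and 2 of cell hashing. The data were deposited as 1 merged matrix of 36602 genes and 10 hashtags by 10660 barcodes. Its values are raw UMI counts, which the authors made with Cell Ranger, version 5.0.1 per the file headers and 2.1.1 with build GRCh38 per the submitters' processing notes. The steps from reads to counts may thus differ between these sources, and the treatment of intronic reads is not given. Gene positions are from GENCODE 29 (GRCh38), whose match to the authors' annotation was not checked, and promoters from RefSeq (GRCh38.p14).

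Cells were kept and chosen as the results describe, with Python 3.11.15, numpy 2.4.6, scipy 1.17.1, pandas 2.3.3 and matplotlib 3.10.9. Doublets were neither called nor removed beyond the limit on the hashtag ratio of 3. Raw counts were summed per tag pair and group and divided by gene UMIs to give CPM, and ratios are log2 of (CPM + 10), weak responders over the rest. The 6 scoring genes were left out of every list and call. Intervals are 95%, conditional binomial for ratios, exact binomial for shares and exact Poisson for levels. They cover the counting of UMIs or of cells only, and not differences between pairs or cultures. No p-value is given, because cells of 1 culture are not replicates and the choice used the same expression (with 4 pairs an exact two-sided permutation test could reach 0.125 at best).

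The members, gene lists and calling rule were chosen with earlier results of these data known. Genes are named where they are among the 15 called genes with the widest ratio in a direction, where they are among the 3 most abundant or 2 widest members of a list, or where they are receptors, kinases, other signalling genes or feedback genes. Some items that this rule names are not reported here. The remaining called genes were named after their values were seen. Alternatives changed the share taken, the score, depth, filters, pseudocount, call and pairs. The count at any size of difference, the runs for single called genes and 6 further lists, and the setting with cells under 5% mitochondrial UMIs left out were chosen after seeing the data.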

Additional observations from a re-analysis of the deposited data

Results flagged for a closer look

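Of 60 sets of 4 ratios checked (30 lists and 30 called genes), 5 had 1 tag pair standing apart from the other 3 by Dixon's 95% critical value, where chance flags about 1 in 20 sets, and none is explained here. TNFSF13B, the BAFF gene, had a log2 ratio of -1.50 in HTO4/HTO9, wider than -0.98, -0.88 and -0.95 in HTO5/HTO8, HTO6/HTO8 and HTO3/HTO9. NINJ1 had -1.35 in HTO6/HTO8, where HTO5/HTO8, HTO3/HTO9 and HTO4/HTO9 had -1.09, -1.09 and -1.13. OPTN had -0.94 in HTO5/HTO8, where the other pairs had -0.69, -0.65 and -0.70. ARHGAP42 was narrowest in HTO3/HTO9 at -0.59, against -0.83, -0.80 and -0.81 in the other pairs. The integrated and endoplasmic reticulum stress list had -0.15 in HTO4/HTO9, against -0.25, -0.24 and -0.26 in the other pairs.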

How the results depend on the processing

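Across 22 alternatives CCL5, CXCL11 and TNFSF10 were called lower in each, C15orf48, CXCL9, GBP5 and NINJ1 in 21, the other lower genes in 9 to 20 (NDRG1 9, ARHGAP42 10, IFIT1 10, SGPP2 11), and GAL was called higher in 11. Leaving out 1 pair, dropping the limit on the mean or a pseudocount of 1 CPM could hardly lose a called gene. Each of these kept all 29 lower genes and GAL. They count in every tally, so the tallies overstate how well a call held when members were chosen anew. In the 19 alternatives that touch list sums, the interferon gamma, antiviral, MHC class I, MHC class II, NF-kB, cytokine, interferon signalling and mitochondrially encoded lists were below 0 in each and the S phase, heat shock and ribosomal lists above 0 in each, while the G2/M list was below 0 in 13 and above 0 in 6. The cause of the shifts that follow was not tested unless stated. With the lowest 25% taken 17 genes were called lower and 0 higher, and with the lowest 10% 3 were called higher. A score without B2M gave 19 lower, cells thinned to 3000 UMIs 19 lower and 9 higher, members chosen within depth classes 16 lower and 0 higher, and members read in unused UMIs 9 higher. Cells with 2000 genes and at most 10% mitochondrial UMIs left 23 members and gave 36 lower genes, 6 of them among the 29, and 30 higher genes without GAL. A pseudocount of 1 CPM gave 5 higher, and the mean of per-cell CPM, the KRT81 limit of 100 CPM and a mitochondrial share of at least 5% gave 0 higher. A 2-fold limit gave 7 lower and 0 higher, and no limit on size 558 lower and 925 higher, both by construction. Leaving out 1 pair gave 32 to 44 lower, 44 without HTO3/HTO9, and 6 to 14 higher. The interferon gamma list, -0.68 as reported, was -0.57 with the lowest 25%, -0.61 thinned and -0.60 with the stricter cell limits. The antiviral list, -0.71 as reported, was -0.58 without B2M and -0.58 thinned, and MHC class II, -0.79 as reported, was -1.27 with the stricter cell limits. The G2/M list, -0.05 as reported, was -0.12 with the lowest 25%, 0.0366 with the stricter limits and 0.0887 as a mean of per-cell CPM. The mitochondrially encoded list, -0.15 as reported, was -0.17 with the lowest 10%, -0.22 in unused UMIs, -0.0112 with the stricter limits, -0.0443 within classes of mitochondrial share, -0.19 within depth classes, -0.17 with mitochondrial genes out of the total, -0.18 centred, -0.21 as a mean of per-cell CPM, -0.12 at a tag margin of 5, -0.12 at the KRT81 limit, -0.10 at a mitochondrial share of at least 5%, and -0.2145 to -0.0873 with 1 pair left out. Each ratio was taken within a tag pair, and no paired test was run because no test applies to these results. Depth limits genes under 3 counts, 6.85 to 11.3 CPM in weak responders.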
